A study of Mus musculus with 6 samples.

Results

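Proximal tubule cells of the third segment (S3) were picked from single-cell RNA libraries of obstructed mouse kidneys by the UMIs (unique molecular identifiers, counted transcripts) of 2 transporter genes. A barcode was taken when it had at least 200 genes, at most 50% mitochondrially encoded UMIs, at least 2 UMIs of Slc7a13 and Slc22a30 together, under 2 UMIs of the injury gene Havcr1 and at most 5 UMIs of the macrophage genes C1qa, C1qb and C1qc together. The rule found 455 cells among the 23578 barcodes that passed the first 2 limits, out of 25978 in all. There were 61, 40 and 29 cells in SH045 1, 2 and 3, against 230, 76 and 19 cells in Vehicle 1, 2 and 3.

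All 6 mice were C57BL/6 and underwent unilateral ureteral obstruction (UUO), the ligation of a ureter, which leads to inflammation and fibrosis of the kidney. A group of mice received SH045, which the series title ties to inhibition of the cation channel TRPC6, and the others received Vehicle, with 3 mice in each group and 1 library per mouse. Kidneys were taken 7 days after surgery. The sources used here do not give dose, route, age or sex, and contralateral kidneys and spatial data were not analysed here.

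The proximal tubule reclaims most filtered solutes, and its segments divide that work. The first and second segments take up glucose, phosphate and amino acids in bulk through carriers such as Slc5a2 and Slc34a1. The third segment is the straight part that descends into the outer medulla. It carries high-affinity glucose and acidic amino acid transport, organic anion carriers, peroxisomes and drug-metabolising enzymes, and many of its genes differ between male and female mice. Slc7a13 is an aspartate, glutamate and cystine transporter of the third segment that pairs with the heavy chain Slc3a1. Slc22a30 belongs to the organic anion transporter family, whose mouse members are close relatives, so reads could be shared among them. Acy3 is an aminoacylase that removes acetyl groups from mercapturates, the end products of glutathione conjugation.

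Stretches of 250 bases before annotated transcription starts are shown for the marker genes Slc22a30 and Acy3 and for Gc and Slco1a1, which differed with SH045. They are from RefSeq, build GRCm38.p6, 5′ to 3′ on the gene's own strand. Capitals mark matches on either strand to 3 motifs that do not overlap one another here: HNF1 (GTTAATNAT), HNF4 (CAAAGTCCA) and the TATA box (TATAAA).
Slc22a30, chr19:8405106-8405355, minus strand: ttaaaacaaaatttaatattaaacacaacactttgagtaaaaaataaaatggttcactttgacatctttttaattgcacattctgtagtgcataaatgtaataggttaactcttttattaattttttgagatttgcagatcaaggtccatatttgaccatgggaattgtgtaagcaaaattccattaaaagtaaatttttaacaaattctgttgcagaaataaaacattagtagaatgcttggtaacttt
Acy3, chr19:3986320-3986569, plus strand: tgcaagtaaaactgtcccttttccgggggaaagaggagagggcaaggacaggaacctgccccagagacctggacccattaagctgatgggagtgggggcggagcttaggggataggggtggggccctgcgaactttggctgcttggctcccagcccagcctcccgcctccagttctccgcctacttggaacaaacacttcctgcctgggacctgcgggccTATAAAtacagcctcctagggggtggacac
Gc, chr5:89457899-89458148, minus strand: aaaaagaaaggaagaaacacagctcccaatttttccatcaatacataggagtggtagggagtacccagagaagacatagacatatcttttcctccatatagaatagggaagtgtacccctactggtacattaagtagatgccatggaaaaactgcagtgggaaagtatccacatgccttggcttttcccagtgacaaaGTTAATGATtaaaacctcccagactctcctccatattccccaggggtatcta
Slco1a1, chr6:141946963-141947212, minus strand: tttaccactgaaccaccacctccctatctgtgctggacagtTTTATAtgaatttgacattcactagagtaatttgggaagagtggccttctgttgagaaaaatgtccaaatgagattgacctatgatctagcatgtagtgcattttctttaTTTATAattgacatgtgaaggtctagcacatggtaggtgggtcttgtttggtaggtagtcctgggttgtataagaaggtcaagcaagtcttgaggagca
Gc had an HNF1 match from -52 to -44, and 0.737% of 32851 promoters of this length hold that motif. Acy3 had a TATA box from -30 to -25 and Slco1a1 had 2 TATAAA matches on its opposite strand, a motif held by 12.4% of promoters. None of the 3 motifs matched in the Slc22a30 stretch, and HNF4, held by 0.384% of promoters, matched in none of the 4. A match is a run of letters and not evidence of binding.

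Library totals ranged from 21186872 to 32256602 UMIs. Vehicle 1 stood apart: it held 230 of the 455 cells, and its S3 cells had a median of 12.4% mitochondrially encoded UMIs, against 23.5 to 27.4% in the other 5 libraries. S3 cells had median totals of 6404, 8424 and 5300 UMIs in SH045 libraries and 4533, 7948 and 6484 UMIs in Vehicle libraries. None of their barcode sequences occurred among S3 cells of a second library, while 178 of 23400 kept sequences occurred in more than 1 library. Marker UMIs also occurred in other barcodes: among those with over 5 C1q UMIs, taken here as macrophages, 0.450, 0.349 and 0.215% in SH045 libraries and 0.645, 0.592 and 0.324% in Vehicle libraries had 2 or more marker UMIs. Free RNA and doublets cannot be told apart in these values. The macrophage barcodes had median totals of 3317, 3278 and 3422 UMIs in SH045 libraries and 2918, 4149 and 3940 UMIs in Vehicle libraries. No doublet caller was run, and 279 of the 455 cells held 2 or more UMIs of markers of another cell class, including all 19 cells of Vehicle 3.

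S3 cells were 1.78, 1.00 and 0.800% of kept barcodes in SH045 libraries and 5.55, 1.78 and 0.459% in Vehicle libraries. The Vehicle libraries spanned the whole SH045 range. The means were 1.20 ± 0.52% with SH045 and 2.60 ± 2.64% with Vehicle (SD, n = 3 each, two-sided exact permutation p = 0.7, where the smallest possible p is 0.1). Without Vehicle 1 the Vehicle mean was 1.12% and the difference changed sign, to 0.075 percentage points higher with SH045. Exact 95% binomial intervals, which cover counting error only, ran from 0.536 to 1.15% for SH045 3 and from 4.87 to 6.29% for Vehicle 1. As a share of all proximal tubule cells in the gates for the third or for the first and second segments, S3 cells made up 18.2, 12.5 and 17.0% in SH045 libraries, against 36.6, 29.5 and 17.0% in Vehicle libraries (two-sided exact permutation p = 0.2).

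**Figure D1:**
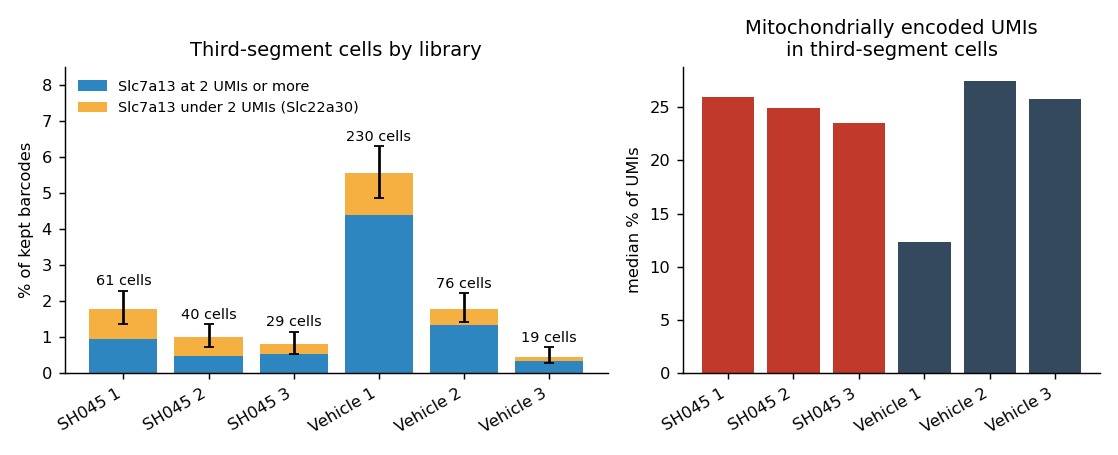
Left, S3 cells as a percentage of kept barcodes per library, with the exact 95% binomial interval and the number of cells, split by whether Slc7a13 itself reached 2 UMIs. Right, the median percentage of mitochondrially encoded UMIs in these cells. Vehicle 1 stands apart in both, at 5.55% of barcodes and a median of 12.4%.

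The label held for part of the gate. Of the 455 cells, 323 had 2 or more UMIs of Slc7a13 and 132 had under 2 and needed Slc22a30 to pass. The 132 are here called the cells without Slc7a13 for short, although 95 of them had 0 UMIs of it and the others had 1. Those 132 cells carried genes of the first and second segments. Slc5a2, the low-affinity glucose transporter SGLT2 that marks the early proximal tubule, ranged over the 6 libraries from 0 to 187 CPM (UMIs of the gene per 1000000 UMIs of the summed cells) where Slc7a13 reached 2 UMIs. It ranged from 436 to 850 CPM where Slc7a13 did not, and from 489 to 719 CPM in cells gated for the first and second segments. Slc5a12, a lactate transporter of the early segments, ranged from 0 to 66.9 CPM with Slc7a13 and from 109 to 440 CPM without. Of 25 S3 genes on a list, 13 were lower in the cells without Slc7a13 in all 6 libraries and 1, the gate gene Slc22a30, was higher; the 13 include Slc7a13, whose direction the split fixed. Of 20 genes of the first and second segments, 9 were higher in all 6 libraries and 1, the phosphate and urate transporter Slc17a3, was lower. Kap, an androgen-regulated kidney protein, lay between 22990 and 55800 CPM with Slc7a13 and between 4399 and 14800 CPM without. Genes off both lists also agreed in all 6 libraries. In the cells without Slc7a13 the amino acid metabolism gene Fah was lower and the oxidative phosphorylation gene Cox5b higher in each. The share of all genes that agreed in this way was not counted. These values describe a split by a gene of the rule, and Vehicle 3 had 5 cells without Slc7a13.

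**Figure D2:**
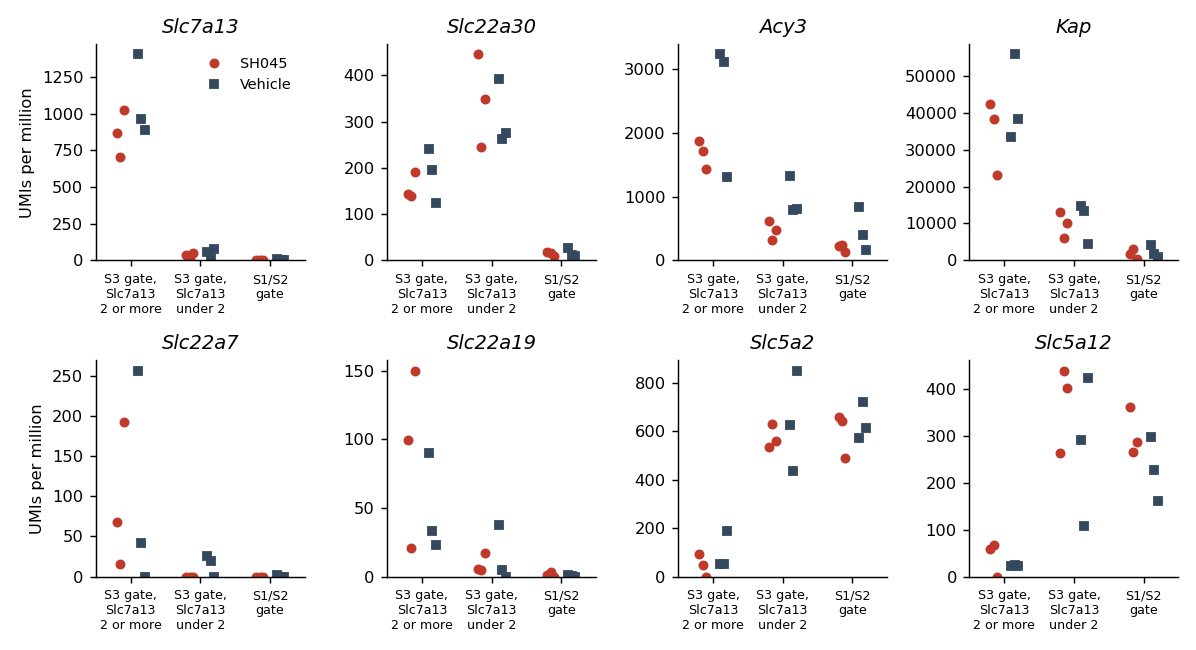
Level of 8 genes in CPM, per library, in S3 cells with Slc7a13 at 2 UMIs or more, in S3 cells under 2, and in cells gated for the first and second segments (circles SH045, squares Vehicle). Cells under 2 UMIs of Slc7a13 reach 436 to 850 for Slc5a2, against at most 187 at 2 or more, and are lower in Acy3 and Kap.

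The mixture differed between the groups. Cells without Slc7a13 were 47.5, 52.5 and 34.5% of the gate in SH045 libraries and 20.9, 25.0 and 26.3% in Vehicle libraries, without overlap. Slc7a13 was part of the rule, so this is a description with no test. Over the whole gate, Slc7a13 was at 531, 359 and 712 CPM with SH045 and at 1104, 718 and 695 CPM with Vehicle, and Slc22a30 was at 265, 192 and 243 CPM with SH045 and at 275, 212 and 160 CPM with Vehicle. Within cells with at least 2 Slc7a13 UMIs, Slc7a13 was at 866, 705 and 1026 CPM with SH045 and at 1404, 963 and 888 CPM with Vehicle. The marker threshold passed through a gradient: Acy3, which the rule did not use, was at 536 CPM in the 293 barcodes just outside it with 1 marker UMI, at 844 CPM in the 118 just inside it with 2, and at 3133 CPM in the 184 with 6 or more. Of the 455 cells, 383 also held 2 or more UMIs of Slc5a2, Slc5a12 and Slc34a1, and the phosphate transporter Slc34a1 ranged from 1423 to 3559 CPM, against 1552 to 2704 CPM in the gate for the first and second segments.

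S3 cells were next compared with 1370 cells of the first and second segments, which had at least 2 UMIs of Slc5a2, Slc5a12 and Slc34a1 together, under 2 marker UMIs of the third segment, and the same other limits. Cells were summed per library, and each library gave both sums, so library was a term of the edgeR model. Most tested organic ion carriers, fatty acid oxidation genes and genes of peroxisomes and amino acid metabolism were higher in the third segment, and 18 of 35 injury genes and 13 of 23 interferon and antigen presentation genes were lower. Of 8053 genes tested, 1404 passed an adjusted p of 0.05 (17.4%), with 828 higher in the third segment (10.3%) and 576 lower (7.15%). Marker genes sorted these cells, so the genes that travel with the markers describe the gates and are no independent evidence of the label. The gates also differed in mitochondrially encoded UMIs, with medians of 12.4 to 27.4% per library in the third segment and 6.50 to 13.4% in the first and second segments, and the part this plays was not tested.

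Of 25 S3 genes on the list, 19 were tested, and 18 rose and 1 fell, with a median log2 change of 2.80, against -0.03 over all genes tested. Acy3 was at 1367, 1019 and 1124 CPM in SH045 and at 2817, 2518 and 1193 CPM in Vehicle S3 cells. In cells of the first and second segments it was at 228, 248 and 134 CPM in SH045 and at 836, 396 and 166 CPM in Vehicle libraries. Its log2 change was 2.75 ± 0.18 (SE, edgeR adjusted p = 8.56e-07), and the third segment was higher in all 6 libraries. The largest rise among called genes with the same direction in every library was that of Slc22a13, the urate and nicotinate carrier OAT10, at 5.72 ± 0.45 (edgeR adjusted p = 2.13e-07), with 35.9 to 203 CPM in the third segment and 0 to 3.47 CPM in the first and second. Slc22a19, another organic anion carrier, rose by 5.31 ± 0.54, and Mep1b, the brush-border protease meprin beta, by 5.59 ± 0.80. Slc5a1, the high-affinity glucose transporter SGLT1, rose by 3.08 ± 0.33 (edgeR adjusted p = 1.57e-07), with 23.1 to 56.5 CPM in the third segment and 1.76 to 8.38 CPM in the first and second. Slc3a1, the partner of Slc7a13, rose by 1.18 ± 0.12. Gsta4, a glutathione transferase, was the member that fell, by 1.32 ± 0.39. Slc22a7 and Cyp7b1 did not pass the count filter of this comparison and were not tested here. The untested members of this list were the gate genes and genes under the count filter, so its count and median describe the 19 tested genes only.

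Fatty acid oxidation and peroxisome genes were also higher, while genes of glycolysis and oxidative phosphorylation mostly did not pass. Of 35 fatty acid oxidation genes, 32 were tested, 23 rose and 0 fell, with a median of 0.85. Cyp4a10, an omega-hydroxylase of fatty acids, rose by 3.60 ± 0.19 and Acox2, the peroxisomal oxidase of branched chains, by 3.11 ± 0.24. Slc27a2, a fatty acid transporter and acyl-CoA synthetase, was at 2099 to 4005 CPM in the third segment and 498 to 890 CPM in the first and second segments, and rose by 2.5 ± 0.13 (edgeR adjusted p = 1.36e-09). Cyp4a10 and Cyp4a14 are near copies, so their counts may be shared in part. Of 33 genes of peroxisomes and amino acid metabolism, 30 were tested, 22 rose and 1, the proline oxidase relative Prodh2, fell, with Bhmt2, a methionine-forming methyltransferase, at 3.66 ± 0.27. Of 18 organic ion carriers, 12 were tested, 9 rose and 1, the exporter Abcc4, fell. Slco3a1 rose by 2.19 ± 0.15 and the cation carrier Slc22a2 by 2.74 ± 0.26. Of 12 genes that differ between the sexes in mouse proximal tubule, 9 were tested and 8 rose. The P450 enzymes Cyp2a4, at 4.80 ± 0.58, and Cyp2d9, at 4.69 ± 0.41, led them. Xist, a transcript of female cells, was at 0 in S3 cells of all 6 libraries. The Y-linked Ddx3y ranged over the libraries from 10.3 to 58.4 CPM in S3 cells with Slc7a13 at 2 UMIs or more. All 7 tested mitochondrially encoded genes rose, with a median of 1.09, while of 48 nuclear genes of oxidative phosphorylation 2 rose and 0 fell, with a median of 0.03. Of 22 genes of gluconeogenesis and glycolysis, 19 were tested, 4 rose and 1 fell, with a median of -0.16.

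The list for the first and second segments did not run the other way. Of 20 genes, 17 were tested, 9 rose in the S3 gate and 3 fell, with a median of 0.99. Slc22a6 and Slc22a8, the organic anion carriers OAT1 and OAT3, rose by 3.06 ± 0.34 and 1.80 ± 0.40. Pck1, the rate-limiting enzyme of gluconeogenesis, rose by 2.70 ± 0.21. Slc7a7 fell by 0.87 ± 0.15, Slc34a3 by 1.43 ± 0.36 and Slc7a8 by 0.75 ± 0.24, a set of carriers of basic amino acids, phosphate and neutral amino acids. Of 14 general proximal tubule markers, 11 were tested, 9 rose and 0 fell. Summed with the gate genes included, the 14 averaged 17670 CPM with SH045 and 16720 CPM with Vehicle in the third segment. In the first and second segments the means were 11730 and 12540 CPM. That gate began at 2 UMIs of its markers, and its part in the rises of Slc22a6, Slc22a8, Pck1 and the other members was not tested. The stricter gate given below is not reported for this list.

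Injury genes were lower in the third segment. Of 43 genes of injury and failed repair, 35 were tested, 0 rose and 18 fell, with a median of -1.02. Vcam1, an adhesion molecule of tubule cells that fail to recover, was at 5.94 to 35.9 CPM in the third segment and 52.4 to 289 CPM in the first and second segments, and fell by 2.37 ± 0.29 (edgeR adjusted p = 5.46e-05). Ccl2, the monocyte chemokine, was at 0 in all 3 SH045 libraries and in 1 Vehicle library of the third segment, and fell by 2.88 ± 0.45. Spp1, osteopontin, fell by 1.26 ± 0.27 and Sox4, a transcription factor of injured epithelium, by 1.69 ± 0.19. Of 25 interferon and antigen presentation genes, 23 were tested, 0 rose and 13 fell, among them H2-K1, a class I antigen-presenting molecule, by 1.02 ± 0.11. The chemokine Cxcl10 fell by 3.30 ± 0.39, the largest fall of a called gene whose libraries all agreed in direction. Lymphoid markers moved with these falls: the sum of 10 such genes was 474, 66.7 and 107 CPM in SH045 and 377, 504 and 522 CPM in Vehicle libraries of the third segment. In the first and second segments it was 6431, 114 and 881 CPM in SH045 and 544, 2767 and 7003 CPM in Vehicle libraries, higher in each of the 6 libraries, and none of the 10 was at 0. Nkg7, a granule protein of cytotoxic lymphocytes, fell by 1.27 ± 0.33, and the part of lymphoid RNA in the interferon and injury counts was not tested. Both gates excluded barcodes with 2 or more Havcr1 UMIs.

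Against cells with at least 10 UMIs of Slc5a2, Slc5a12 and Slc34a1, a stricter gate for the first and second segments added after the data were seen, 1129 of 6938 genes passed. Of the injury list 28 were tested, 1 rose and 5 fell, with a median of -0.41, and of the interferon list 20 were tested and 10 fell. Of the S3 list 16 rose and 1 fell under that gate, of 18 tested. Without Vehicle 1, 1294 of 7418 genes passed, with 18 of 19 S3 genes higher and 17 of 33 injury genes lower. Where only the cells without Slc7a13 stood for the third segment, 302 of 7247 genes passed, and 11 of 15 S3 genes rose and 1 fell.

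**Figure D3:**
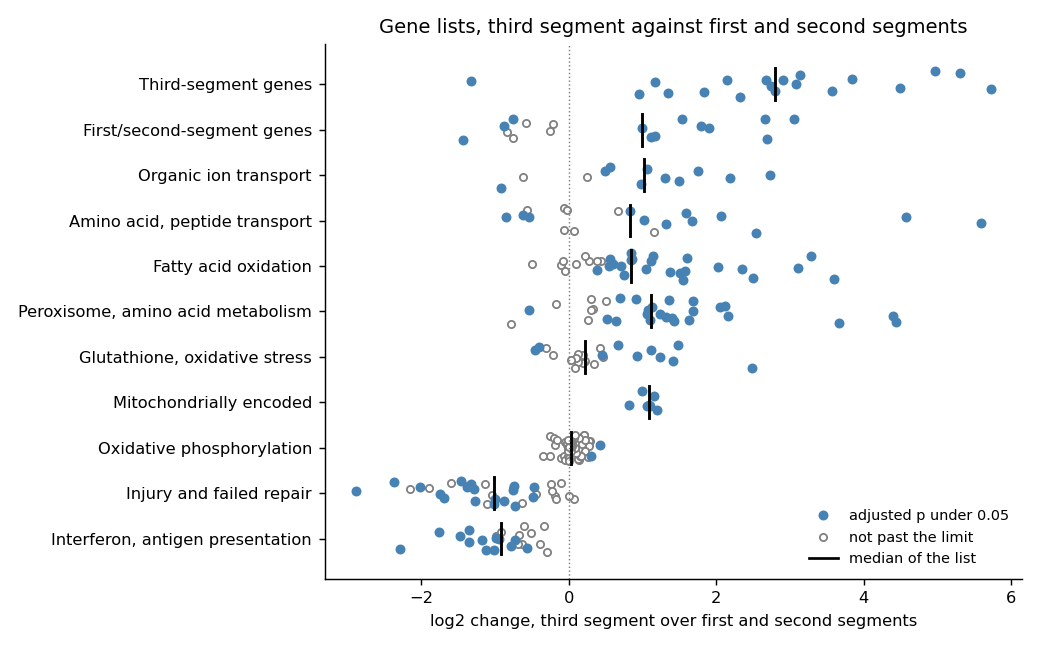
Log2 change of each tested gene, S3 over first and second segments, for 11 gene lists (filled, adjusted p under 0.05; open, not past the limit; line, median of the list). S3 genes have a median of 2.80 and injury genes of -1.02.

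The comparison of SH045 with Vehicle within S3 cells asked which transcripts of these cells differ with the compound. Slco1a1, an organic anion transporting polypeptide, Dnase1, a secreted nuclease, and Cndp2, a cytosolic dipeptidase, fell with SH045, as did 4 genes of myeloid cells. Gc, the vitamin D-binding protein, and Slc7a8, a neutral amino acid exchanger, rose. Of 4783 genes tested, 9 passed an edgeR adjusted p of 0.05 (0.188%), 2 higher (0.0418%) and 7 lower (0.146%), and 458 had an unadjusted p under 0.05. The 9 calls rested on all cells of the gate. Among the 323 cells with Slc7a13 at 2 UMIs or more, 1 of 2976 genes passed, and among the 132 without, where Vehicle 3 had too few cells to be used, 22 of 3398. Without Vehicle 1, 2 of 5285 genes passed.

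Slco1a1, a gene of the S3 list, was at 78.2, 74.4 and 62.1 CPM in SH045 libraries and at 273, 415 and 131 CPM in Vehicle libraries. Every SH045 library lay below every Vehicle library, but such separation was a condition for naming the largest called genes. Slco1a1 fell by 2.03 ± 0.35 on the log2 scale (SE, n = 3 each, edgeR adjusted p = 0.0237). The call ended without any 1 of 5 libraries and held without Vehicle 3 alone, and without Vehicle 1 the change was -2.12 (edgeR adjusted p = 0.150). Slco1a1 lies at chr6:141907282-141946962, minus strand, and its upstream bases are printed above. Dnase1, at chr16:4036942-4040024, plus strand, was at 164, 141 and 84.7 CPM with SH045 and at 481, 510 and 333 CPM with Vehicle, again without overlap. Dnase1 fell by 1.79 ± 0.27 (edgeR adjusted p = 0.00335), by 1.79 without Vehicle 1 (edgeR adjusted p = 0.0224), and lost the call without SH045 2 (edgeR adjusted p = 0.0752). Cndp2, one of the sex-biased genes, was at 517, 359 and 441 CPM with SH045 and at 1386, 1409 and 695 CPM with Vehicle. Cndp2 fell by 1.47 ± 0.26 (edgeR adjusted p = 0.0184), and the call held without Vehicle 3 alone; without Vehicle 1 it fell by 1.40 (edgeR adjusted p = 0.150). Among cells with Slc7a13 at 2 UMIs or more, Slco1a1 differed by -1.64, Dnase1 by -2.23 and Cndp2 by -1.30, and none of the 3 passed (edgeR adjusted p = 0.352, 0.0831 and 0.184). In all 6 libraries Slco1a1 and Cndp2 were lower in the cells without Slc7a13, whose share was higher with SH045. Medians over libraries were 30.1 against 151 CPM for Slco1a1 and 443 against 676 CPM for Cndp2. For Dnase1 those cells were higher in 4 libraries and lower in 2. The part of this mixture in the 3 falls was not tested.

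Gc, a plasma protein made mainly by the liver and bound by the tubule's uptake receptors, was at 61.6, 97.5 and 152 CPM with SH045 and at 12.7, 7.72 and 41.6 CPM with Vehicle. The groups did not overlap. Gc rose by 2.74 ± 0.48 on the log2 scale (SE, n = 3 each, edgeR adjusted p = 0.0184), and by 2.48 without Vehicle 1 (edgeR adjusted p = 0.296); the call also ended without SH045 2 or Vehicle 2. In cells with Slc7a13 at 2 UMIs or more Gc was at 43.7, 46.3 and 200 CPM with SH045 and at 7.27, 5.22 and 7.79 CPM with Vehicle. Gc lies at chr5:89417522-89457898, minus strand. Slc7a8, a gene of the list for the first and second segments at chr14:54722209-54781946, minus strand, was at 71.1, 123 and 67.8 CPM with SH045 and at 21.9, 12.9 and 41.6 CPM with Vehicle. Slc7a8 rose by 2.04 ± 0.40 (edgeR adjusted p = 0.0304), and the call held without SH045 3 or Vehicle 3 but not without any other library (edgeR adjusted p = 0.327 without Vehicle 1). With the trend of log2 changes with transcript length removed, 6 genes passed, and Slc7a8, Ctss and Mgl2 did not (edgeR adjusted p = 0.0562, 0.0562 and 0.0623). In cells with Slc7a13 at 2 UMIs or more Slc7a8 overlapped between the groups, at 23.8, 51.5 and 0 CPM with SH045 and at 12.7, 5.22 and 31.2 CPM with Vehicle. In the cells without, Slc7a8 was at 141, 194 and 210 CPM with SH045 and at 53.8, 34.7 and 75.0 CPM with Vehicle. The share of cells without Slc7a13 was higher in all SH045 libraries, as given above, and its part in the change of Slc7a8 over the whole gate was not tested.

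The other 4 falls were of genes that myeloid cells express strongly. Crip1, a small LIM-domain protein, was at 33.2, 33.4 and 11.3 CPM with SH045 and at 249, 152 and 232 CPM with Vehicle. It fell by 2.90 ± 0.33 on the log2 scale (SE, n = 3 each, edgeR adjusted p = 0.000128), and the call held without any 1 library, at -2.78 without Vehicle 1 (edgeR adjusted p = 0.00217). Wfdc17, a secreted protein of activated macrophages, was at 11.9, 15.4 and 16.9 CPM with SH045 and at 85.4, 77.2 and 53.4 CPM with Vehicle, and fell by 2.43 ± 0.40. Ctss, the lysosomal protease cathepsin S, was at 40.3, 25.7 and 16.9 CPM with SH045 and at 114, 91.4 and 131 CPM with Vehicle, and fell by 1.92 ± 0.35. The groups did not overlap for any of these genes. Mgl2, a lectin of macrophages and dendritic cells with 0 UMIs in SH045 3, fell by 2.55 ± 0.50. The adjusted p of these 3 genes in edgeR was 0.0103, 0.0184 and 0.0303, and without Vehicle 1 it was 0.133, 0.150 and 0.150 with changes of -2.36, -1.94 and -2.59. Without SH045 2 none of the 3 passed, Wfdc17 also failed without SH045 1, and Mgl2 also failed without SH045 3 or Vehicle 2.

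All 4 of these genes were far higher in macrophage barcodes of the same libraries than in the third segment. In barcodes with over 5 C1q UMIs, Crip1 was at 774, 1217 and 722 CPM with SH045 and at 1770, 1859 and 1806 CPM with Vehicle, and Ctss was at 4945, 4905 and 4901 CPM with SH045 and at 4735, 4677 and 4664 CPM with Vehicle. In the third segment, all 8 dendritic cell markers had UMIs in at least 1 library, and their sum was at 9.48, 0 and 5.65 CPM with SH045 and at 48.0, 47.6 and 101 CPM with Vehicle, without overlap. Tubule cells also express the macrophage marker Apoe. The sum of the 9 macrophage markers without Apoe ranged from 131 to 226 CPM with SH045 and from 194 to 655 CPM with Vehicle, overlapping. Of these markers 0 were at 0. They include C1qa, C1qb and C1qc, which the rule held to at most 5 UMIs together per barcode. The rule thus limited this sum, which is a description only. The part of immune RNA in these 4 falls was not tested directly. When the 12 cells with over 1% of UMIs from markers of other classes were left out, an alternative added after the data were seen, Crip1 fell by 2.32 (edgeR adjusted p = 0.0252) and Wfdc17 by 2.17 (edgeR adjusted p = 0.0350), while Ctss and Mgl2 no longer passed (edgeR adjusted p = 0.254 and 0.175).

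**Figure D4:**
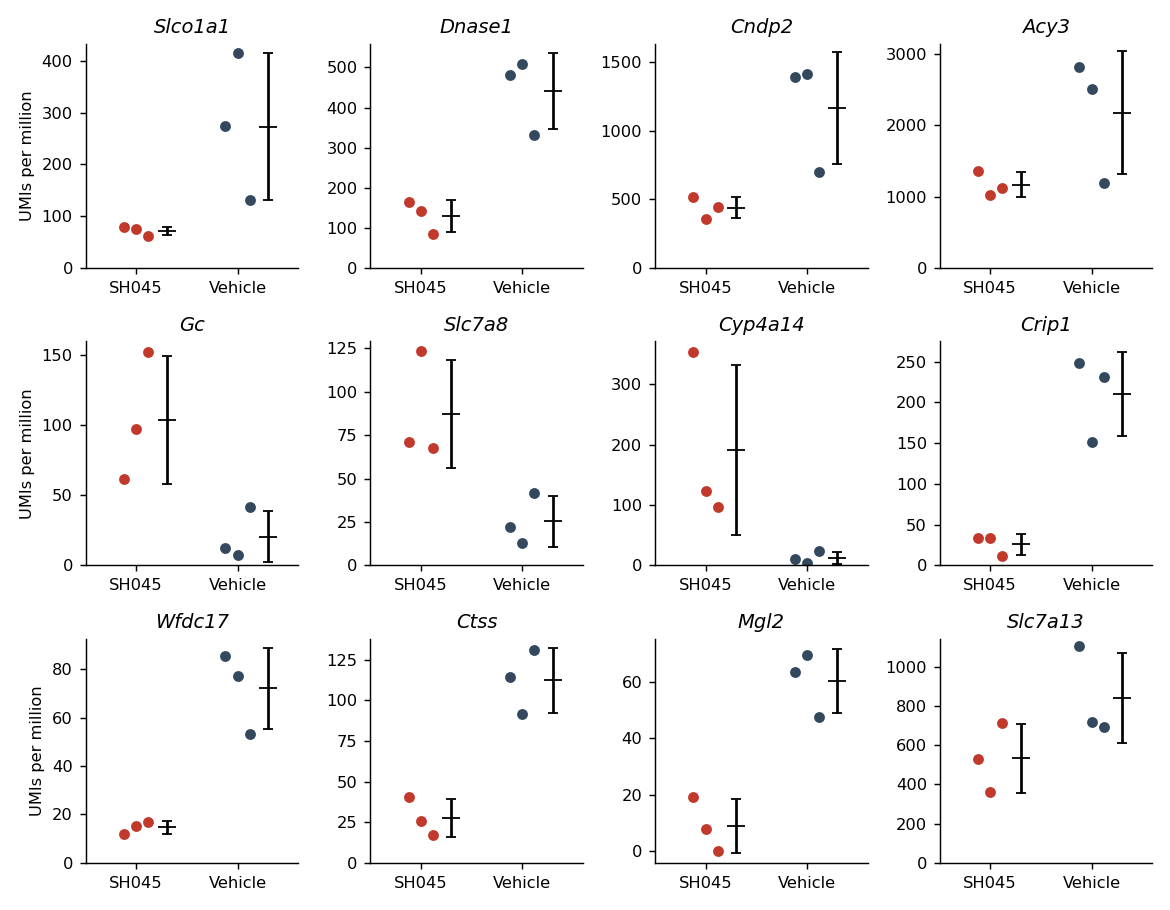
Level in CPM of 12 genes in S3 cells, 1 point per library, with the mean and SD (n = 3 each) beside the points. SH045 and Vehicle libraries do not overlap for the 9 called genes and for Cyp4a14, and overlap for Slc7a13, which belongs to the rule. Lack of overlap was a condition for naming the largest called genes, so it adds no support to the calls. The share of all 4783 tested genes without overlap was not counted.

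Cyp4a14, a fatty acid omega-hydroxylase and target of the lipid sensor PPAR-alpha, had the largest difference among the named genes without passing. It was at 353, 123 and 96.0 CPM with SH045 and at 11.3, 3.86 and 23.8 CPM with Vehicle. All SH045 libraries lay above all Vehicle libraries. Its log2 change was 4.28 ± 0.69 (SE, n = 3 each, edgeR adjusted p = 0.0997). Among cells with Slc7a13 at 2 UMIs or more it was the gene that passed, at 4.82 ± 0.53 (edgeR adjusted p = 0.000564), with 457, 226 and 125 CPM in SH045 libraries and 11.8, 5.22 and 15.6 CPM in Vehicle libraries. Its near copy Cyp4a10 had a change of 0.88 ± 0.27 (edgeR adjusted p = 0.320), and Ppara itself of 0.10 ± 0.37. None of the 31 tested genes of the fatty acid oxidation list, these 3 included, passed, and the list's median was -0.06, against 0.01 over all genes tested. Cyp4a14 passed under 8 of 17 alternatives, among them the DESeq2 test and leaving out SH045 1 or SH045 3, with adjusted p over the 17 between 4.52e-21 and 0.727. The highest was that without Vehicle 1, where the change was 4.45.

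The marker Acy3 differed by -0.95 ± 0.27 on the log2 scale between SH045 and Vehicle (edgeR adjusted p = 0.286), and its values above overlapped only through Vehicle 3. Of 23 tested genes of the S3 list 1, Slco1a1, fell and 0 rose, with a median of -0.09. The list depended on which cells were counted. Without cells holding markers of another class, 5 of 17 tested members fell, Acy3 by 1.63 among them (edgeR adjusted p = 0.0201), with a median of -0.76. In the cells without Slc7a13, 3 of 12 fell, with a median of -0.76, and Vehicle 3 was not used in either fit. In cells with Slc7a13 at 2 UMIs or more 0 of 21 passed, with a median of 0.11, and without Vehicle 1 0 of 23 passed, with a median of 0.08. Transport genes of the segment that moved little included Slc6a18, a neutral amino acid carrier, at 0.22 ± 0.26, Slc3a1 at -0.20 ± 0.22 and Slc5a1 at -0.06 ± 0.40. Slc22a7, the organic anion carrier OAT2, ranged from 7.70 to 130 CPM with SH045 and from 0 to 205 CPM with Vehicle, and Cyp7b1, an oxysterol hydroxylase, from 7.70 to 152 CPM with SH045 and from 0 to 96.7 CPM with Vehicle. Both spread too widely within each group to give a direction, at -0.99 ± 1.40 and -0.09 ± 1.27. Of 19 tested genes for the first and second segments, Slc7a8 rose and 0 fell. Of the 19 changes, 14 were positive, with a median of 0.35, against 2429 positive changes among all 4783 genes tested. Hnf4a, a master regulator of proximal tubule identity, had 284, 387 and 361 CPM with SH045 and 193, 207 and 208 CPM with Vehicle, a change of 0.71 ± 0.23 (edgeR adjusted p = 0.366). The uptake receptor Lrp2 differed by 0.42 ± 0.21, the metallothionein Mt1 by -1.07 ± 0.35 and the secreted peroxidase Gpx3 by -0.01 ± 0.28, none of which passed in edgeR. Lcn2, Vcam1 and Cdkn1a were below the count filter.

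Energy metabolism genes lay slightly lower with SH045 without any call. Over all 4783 genes tested, 2354 changes were negative. Of 48 tested genes of oxidative phosphorylation 0 passed, 47 changes were negative and the median was -0.32. Their summed level was 29540, 32990 and 28130 CPM with SH045 and 43170, 33150 and 33280 CPM with Vehicle (exact permutation p = 0.1, the smallest possible). In cells of the first and second segments 47 of the 48 changes were also negative, with a median of -0.30, so this was not particular to S3 cells. The log2 changes of all 4783 genes followed transcript length, with a Spearman correlation of 0.39 across genes, which are not independent replicates. With that trend removed, an alternative added after the data were seen, the median of the oxidative phosphorylation list was -0.15. Of 13 tested genes of gluconeogenesis and glycolysis 0 passed, with a median of -0.38. Of 22 tested injury genes 0 passed, with a median of -0.28: Spp1 was at 931, 1244 and 2011 CPM with SH045 and at 873, 618 and 837 CPM with Vehicle, a change of 0.79 ± 0.25 (edgeR adjusted p = 0.362), and Krt8, an epithelial keratin, differed by -0.67 ± 0.29. Of 10 tested interferon and antigen presentation genes 0 passed, with a median of -0.81. Without the cells that held 2 or more UMIs of markers of another class, which left Vehicle 3 out, the median of the 7 genes then tested was 0.49, 6 of 7 changes were positive and 1 gene rose.

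Trpc6 had 0 UMIs in S3 cells of all 6 libraries. Over their 3350385 UMIs and 455 cells, 3 counts allow up to 0.895 CPM and up to 0.659% of cells with a UMI, so neither its presence nor a change could be seen at this depth. Of 22 genes of calcium handling and TRPC channels 11 were tested and 0 passed, with 10 of 11 changes positive and a median of 0.41. Over all 4783 genes tested, 2429 changes were positive and the median was 0.01. The 22 genes summed to a mean of 958 CPM with SH045 and 651 CPM with Vehicle in S3 cells. Means were 1147 and 839 CPM in cells of the first and second segments, and 1126 and 792 CPM in barcodes with over 5 C1q UMIs. The higher level with SH045 was thus not particular to S3 cells. Log2 changes followed transcript length, as given above, and the part of that trend in these sums was not tested.

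The same test in cells of the first and second segments called 1 of 10337 genes (0.00967%), Hsd11b2, an enzyme of collecting duct principal cells. Principal cell markers summed to 161, 91.5 and 94.4 CPM with SH045 and to 27.9, 29.7 and 7.19 CPM with Vehicle in those cells. Hsd11b2 is itself 1 of these 6 markers, so the sum is not independent of its call. The difference between the SH045 effects in the 2 kinds of cell, tested as an interaction in edgeR, passed for 0 of 8053 genes (0.0%), with 284 at an unadjusted p under 0.05, and DESeq2 also called 0. Slco1a1 differed by -2.33 ± 0.43 in the first and second segments, against -2.03 ± 0.35 in the third, and Cyp4a14 by 4.69 ± 0.73 against 4.28 ± 0.69. Cndp2 differed by -1.65 ± 0.62 in the first and second segments. Gc differed by 0.92 ± 0.26 there, with an interaction of 1.48 ± 0.42 (edgeR adjusted p = 1.00), and Crip1 by -0.85 ± 0.42, with an interaction of -2.17 ± 0.65 (edgeR adjusted p = 1.00). On simulated data the interaction test recovered 72% of genes with a 4-fold difference and 20% of those with a 2-fold difference. No effect of SH045 was therefore shown to be particular to the third segment, and 0 calls do not show that the effects were shared.

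**Figure D5:**
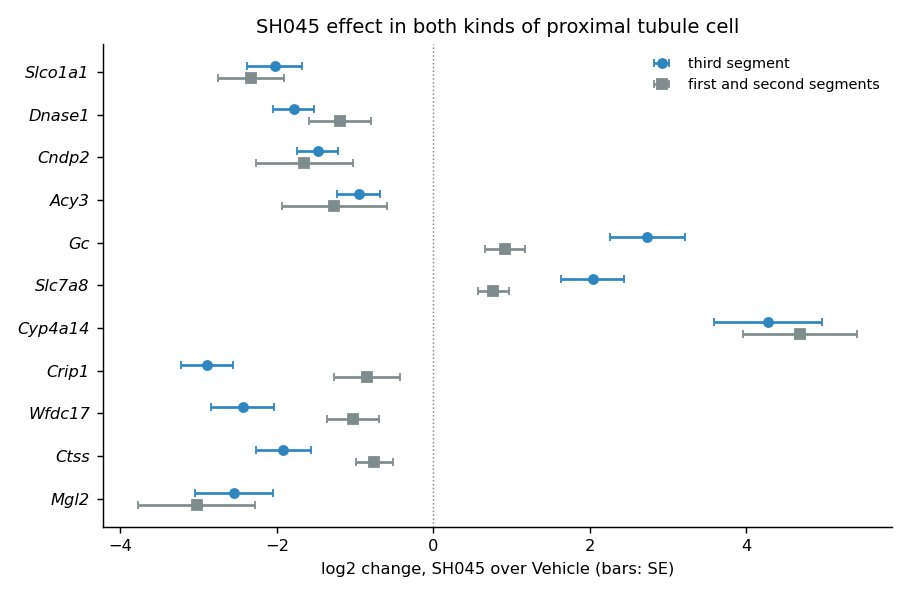
Log2 change, SH045 over Vehicle, with its SE, for the 9 called genes, Acy3 and Cyp4a14 in S3 cells (circles) and in cells of the first and second segments (squares). Slco1a1, Cndp2 and Cyp4a14 lie close together in both, while Gc is at 2.74 in the third segment and at 0.92 in the first and second segments; the interaction passed for 0 genes.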

How the data were processed

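Single cells of 6 kidneys were profiled with the Singleron GEXSCOPE kit, per the labels' protocols. For each library the authors deposited untransformed UMI counts, genes by barcodes, and mm10 is the build per the submitters' processing notes. The sources used here do not give the aligner, annotation, strand setting or cell calling. The lowest barcode total was 2166 UMIs. Counts were read with Python 3.11.15 and summed per library over gated cells. Sums were tested with edgeR 4.0.16 (R 4.3.3; quasi-likelihood test with robust dispersion, TMM scaling, filterByExpr for low counts), with Benjamini-Hochberg adjustment over all genes tested and a limit of 0.05; gate genes were left out. Libraries needed at least 10 cells. CPM values are UMIs per 1000000 summed UMIs, without length correction. Gene positions are from GENCODE vM21 (GRCm38, the assembly of mm10). Each sample is a mouse, and cells were never used as replicates. Alternatives covered DESeq2 1.42.0, filters, gates and left-out libraries; others were added after the data were seen. Tested on simulated data for the S3 comparison of SH045 and Vehicle (4783 genes), edgeR recovered 99% of genes changed 4-fold and 35% of those changed 2-fold, and called 7 unchanged genes. The cells, gene lists and tests were chosen with earlier results of these data known. Named genes were a fixed set, up to 8 of the largest called changes each way whose libraries did not overlap, those with the smallest p where few were called, and up to 4 called members of each gene list; Cyp4a10, Kap, Slc5a2, Slc5a12 and further list members were named after their values were seen.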

Additional observations from a re-analysis of the deposited data

Results flagged for a closer look

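A signal lay outside the cells analysed. Barcodes with at least 200 genes that failed only the limit of 50% mitochondrially encoded UMIs, and otherwise met the S3 rule, numbered 155 over the 6 libraries: 35, 43 and 15 in SH045 and 13, 33 and 16 in Vehicle libraries. All barcodes over that limit were 6.86, 6.01 and 5.89% in SH045 libraries and 1.75, 3.31 and 2.22% in Vehicle libraries, without overlap (exact permutation p = 0.1, the smallest possible). Of all barcodes meeting the marker limits, 36.5, 51.8 and 34.1% were thus lost in SH045 and 5.35, 30.3 and 45.7% in Vehicle libraries. With no mitochondrial limit, S3 cells were 2.61, 1.96 and 1.14% of SH045 and 5.76, 2.47 and 0.827% of Vehicle barcodes.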

How the results depend on the processing

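The count of called genes in S3 cells, 9 as reported, was 18 with the DESeq2 test, 53 with no low-count filter, 1 with a marker minimum of 3 UMIs, 16 without cells holding markers of another class (Vehicle 3 then had too few cells), 1 in cells with Slc7a13 at 2 UMIs or more, 22 in cells without, and 1 to 14 with a library left out (1 without SH045 2, 2 without Vehicle 1). In the first and second segments, 1 call became 11 with the DESeq2 test, 84 with no filter, 0 at a mitochondrial limit of 20%, 2 at 3 marker UMIs, 0 without cells holding other markers, 0 without those over 1%, 6 with no mitochondrial limit and 0 to 11 with a library left out. Between segments, 1404 calls became 613 at a limit of 20%, 375 without cells holding other markers, 302 in cells without Slc7a13, 699 in SH045 and 758 in Vehicle libraries alone, and 922 to 1341 with a library left out. The interaction, with 0 calls, gave 19 with no filter, 4 at a limit of 20%, 1 without cells holding other markers, 9 in cells without Slc7a13 and 0 to 6 with a library left out. The difference in share ranged from -2.47 to 0.075 percentage points with a library left out.

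Same-numbered libraries did not deviate together (correlations of -0.03, -0.04 and -0.04 in S3 cells; -0.05, -0.13 and 0.18 in the first and second segments, where number 3 alone was above 0.1), so the replicate numbers were not taken as a pairing; with the replicate number as a block, 17 genes were called in the third segment and 8 in the first and second segments.

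Some changes of single genes changed sign. Between segments, Itpr2 was at 0.14 and Gpx3 at 0.0084 in cells without Slc7a13, and Fbp1 was at -0.11 and Slc30a1 at -0.0057 without cells holding other markers. For SH045 against Vehicle in the third segment, Slc5a1 was at 0.23 with 3 marker UMIs and 0.24 with Slc7a13, and Slc3a1 at 0.010 and 0.020 there; Slc6a18 was at -0.12 without cells holding other markers and -0.085 in cells without Slc7a13; Cyp7b1 was at 0.51 with DESeq2, 0.48 at a limit of 20%, 0.038 with the length trend removed and 0.43 with Slc7a13; Ppara was at -0.0059 with no filter; Gpx3 was at 0.15 at a limit of 20%, 0.51 without cells holding other markers and 0.13 with the length trend removed. With a library left out, Slc22a7 ranged from -2.0 to 0.81, Slc22a19 from -0.36 to 1.08, Slc5a1 from -0.34 to 0.19, Slc6a18 from -0.11 to 0.41, Cyp7b1 from -1.47 to 1.13, Ppara from -0.11 to 0.21 and Gpx3 from -0.21 to 0.14. For these the cause was not tested. Depth limits the third segment: Vehicle 3 gave 168436 UMIs from 19 cells.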

Other observations

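Among antigen presentation genes, chosen after their values were seen, H2-Eb1 differed in S3 cells between SH045 and Vehicle by -1.32 ± 0.31 on the log2 scale (edgeR adjusted p = 0.140), H2-Aa by -1.44 ± 0.38 and Cd74 by -1.30 ± 0.46, and the immunoproteasome gene Psmb8 by -2.06 ± 0.49 (edgeR adjusted p = 0.137). Markers of dendritic cells, which express such genes strongly, summed to 9.48, 0 and 5.65 CPM with SH045 and to 48.0, 47.6 and 101 CPM with Vehicle. Without cells holding markers of another class the median of the interferon and antigen presentation list was 0.49, against -0.81 with them. These medians cover different genes and libraries, because that gate left fewer genes to test and no cells of Vehicle 3. Vehicle 3 had the highest sum of this list in S3 cells, at 9791 CPM against 5884 and 4054 CPM in Vehicle 1 and 2. The part of immune RNA was not tested. Lcn2, an injury gene below the count filter, was at 9.48, 20.5 and 361 CPM with SH045 and at 200, 19.3 and 11.9 CPM with Vehicle, so that 1 library of each group carried most of it. Kcnq1ot1, an imprinted antisense transcript whose reads cannot be told apart from those of Kcnq1 without strand, was at 68.7, 66.7 and 141 CPM with SH045 and at 21.2, 24.5 and 35.6 CPM with Vehicle, a log2 change of 1.77 ± 0.39 (edgeR adjusted p = 0.0824).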
